A study of Porolithon cf. onkodes and Sporolithon durum with 38 samples.

Results

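Warming was compared at low pH in P. onkodes (Porolithon cf. onkodes), a reef-building coralline alga, as 5 T+pH libraries (29.5 °C, pH 7.7) against 4 pH libraries (27.2 °C, pH 7.7). Of the libraries in the count tables read here, 17 of P. onkodes among 36 in all, these are 9, and they were chosen by their treatment labels alone. Both treatments shared the reduced pH, for which the labels give a pCO2 of 1000 µatm, and both lasted 3 months. The other P. onkodes libraries, used for the spread and for a second comparison of temperature, were 4 from T (29.5 °C) and 4 from the control (27.2 °C), both at pH 8.0 and 450 µatm pCO2. Each library came from the pigmented tissue of a fragment of wild-collected alga, and whether fragments shared a parent alga or a tank was not given for each library. PO9, a pH library, and PO13, a control library, are not analysed here.

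Crustose coralline algae are red algae that cement reefs with calcite and fix carbon through the Calvin cycle, in which phosphoribulokinase makes the acceptor of CO2 and glyceraldehyde-3-phosphate dehydrogenase (GAPDH) reduces the first product. Where Rubisco takes up O2 in place of CO2, photorespiration returns the carbon by way of glycolate, glyoxylate, glycine and serine. Nitrogen enters such cells mainly as nitrate or ammonium through transporters of the plasma membrane. No genome was used in the study, so that transcripts carry the names of a de novo Trinity assembly and their proteins are matches in other species. In whole tissue, fewer cells of a kind and less RNA per cell cannot be told apart.

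The study designed RT-qPCR primers for 7 of the transcripts counted here, and 3 pairs are shown, for the single transcript among them that edgeR called and for the transcripts marked as its references. GAPDH (DN74877_c1_g1_i1) had 2033 counts over the 5 T+pH libraries and 100 over the 4 pH libraries. The reference transcripts, β-tubulin (DN76782_c6_g1_i1) and heme oxygenase (DN95780_c0_g1_i1), had 11 and 72 counts over T+pH, against 1 and 25 over pH. The primers are written 5′ to 3′, whole and in lower case.
GAPDH, forward: tgtcattgctggcgaggatt
GAPDH, reverse: cttcgctcccgcctgaatat
β-tubulin, forward: tcggccctactgagtcgatt
β-tubulin, reverse: ctggagaaggcatggacgag
heme oxygenase, forward: aaccagaattacttgtgtcgca
heme oxygenase, reverse: ctgtaccttcattgccagaaagt

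The libraries were made by CEL-Seq2, which primes at the poly(A) tail and tags each cDNA molecule with a unique molecular identifier (UMI). Total counts ranged from 78142 (PO19) to 3012292 (PO15) in T+pH and from 159937 (PO11) to 988016 (PO5) in pH. The means of log10 totals differed by 0.252 (exact permutation test, two-sided, p = 0.5, of 126 arrangements with a smallest possible p of 0.00794). A single count was worth 17.4 CPM in PO19, against 0.306 to 2.45 CPM in the other T+pH libraries and 1.06 to 6.77 CPM in pH, where CPM relates the counts to the TMM-scaled size of the library (TMM is the trimmed mean of M-values). Library PO19 also stood apart in that 10 transcripts held 32.0% of its counts and in that 6810 transcripts were found in it, against 10141 to 11415 in the other T+pH libraries and 8992 to 10910 in pH at the same depth of 78142 counts. The study's own list of libraries leaves out PO19 and gives PO12 another total than its counts have here, whereas the totals of the other P. onkodes libraries are the same. Summed levels of 7 transcripts matched to red algal proteins were 279 to 1044 CPM in T+pH and 208 to 497 CPM in pH, and each of the 7 was counted in both treatments. Among these, 3 were DEGs that rose (GAPDH and both PYP1 isoforms), 1 was a DEG that fell (actin), and 4 of the 7 fold changes were positive. The sums therefore do not measure the amount of algal tissue. A list of 5 transcripts matched to proteins outside red algae summed to 157 to 366 CPM in T+pH and 40.6 to 81.4 CPM in pH. All 5 were counted in both treatments and had positive fold changes, 1 of them as a DEG. This list does not hold all such matches. Transcripts matched in bacteria but not listed included DEGs that rose, such as arginine deiminase, and DEGs that fell, such as EF-Tu and transaldolase. The sums of the list therefore do not measure the amount of other organisms, whose part in the results was not tested.

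Of 118126 transcripts, 23910 had at least 5 counts over the 9 libraries and were tested. Between T+pH and pH, 120 of them (0.502% of those tested) were differentially expressed (DEGs) at an adjusted p (FDR) below 0.05 in edgeR's quasi-likelihood test. Of these, 20 were higher in T+pH (0.0836% of those tested) and 100 were lower (0.418%). The rises came from 18 Trinity genes and the falls from 82. The median log2 fold change (T+pH over pH) was 2.49 among the rises and -4.71 among the falls, or -3.83 with the 31 falls that had no count in T+pH set at the bound that 3 counts allow, whereas over all tested transcripts it was 0.11. The smallest absolute log2 fold change of a DEG was 1.91. CPM ranges of T+pH and pH lay apart in 16 of the 20 rises and 52 of the 100 falls, against 1.71% of all tested transcripts (0.719% higher and 0.987% lower). The DEGs were chosen by their difference between these same libraries, so their more frequent separation follows from the selection. A protein match was given for 18 of the rises and 18 of the falls.

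The count of DEGs rested on single libraries. It was 15 without PO15, 37 without PO12, 31 without PO3, 191 without PO6 and 231 without the control library PO10, which entered only through the shared fit. No rise was called without PO15 or without PO3, whereas 4 were called without PO12, 7 without PO11, 9 without PO5, 39 without PO10 and 62 without PO6. Falls numbered 56 without PO19 and 164 without PO5. DESeq2 called 156 transcripts, 44 higher and 112 lower in T+pH, and shared 17 rises and 50 falls with edgeR. With relative log expression (RLE) size factors in place of TMM the median over all transcripts moved by -0.11 on the log2 scale, and 15 higher and 107 lower transcripts were called.

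**Figure D1:**
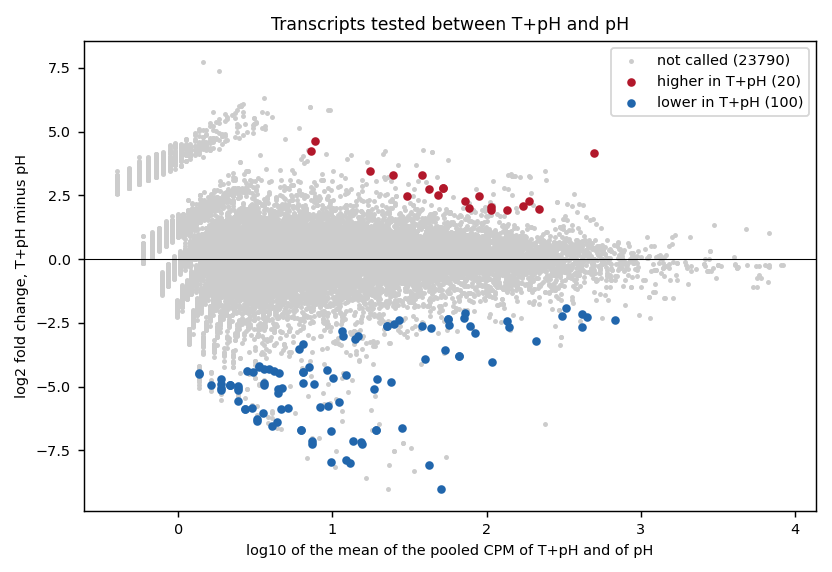
Log2 fold change (T+pH over pH, y axis) against the mean pooled CPM of the treatments (log10 axis, x) for the 23910 tested transcripts, each as a point, with the 20 DEGs higher and the 100 lower in T+pH in colour. The falls reach larger fold changes than the rises and lie mostly at low levels.

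Transcripts of photorespiration and the Calvin cycle were among the rises, each with a higher mean in T+pH than in pH, T or the control. In the values that follow, T+pH libraries stand in the order PO6, PO7, PO12, PO15 and PO19, and pH libraries in the order PO3, PO5, PO11 and PO14. The match to serine-pyruvate aminotransferase of Dictyostelium (DN74502_c6_g1_i1), an enzyme that turns glyoxylate into glycine in photorespiration, had 144, 168, 1275, 1477 and 2143 CPM in T+pH, against 31.9, 65.9, 31.9 and 108 CPM in pH. All 5 T+pH libraries lay above the pH libraries, although PO6 and PO7 exceeded the highest of them, PO14, by little while PO12, PO15 and PO19 stood far above. The log2 fold change was 4.15 ± 0.85, FDR 0.0318, the value after ± being the standard error of the fit. The match to mitochondrial serine hydroxymethyltransferase of pea (DN72323_c1_g3_i1), which joins photorespiratory glycine into serine, had 129, 100.3, 330.5, 434 and 34.8 CPM in T+pH, against 44.2, 47.8, 53.2 and 60.9 CPM in pH. PO19, with 2 counts, lay below the pH libraries, and the other T+pH libraries lay above them (2.08 ± 0.51, FDR 0.0376).

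GAPDH (DN74877_c1_g1_i1, matched to the chloroplast enzyme of Gracilaria, a red alga) had 95.2, 249, 379, 459.9 and 87.1 CPM in T+pH, against 56.6, 54.2, 26.6 and 81.2 CPM in pH. The lowest T+pH libraries, PO19 and PO6, were just above the highest pH library, PO14 (2.26 ± 0.50, FDR 0.0232). Phosphoribulokinase (DN72649_c1_g2_i2, matched in Chlamydomonas) had 239, 270.3, 399, 437 and 244 CPM in T+pH, against 99.1, 75.5, 63.9 and 88 CPM in pH. No pH library came near the lowest T+pH library, PO6 (1.97 ± 0.45, FDR 0.0271). One of the fructose-bisphosphate aldolase transcripts (DN74098_c0_g1_i1), which serves both the Calvin cycle and glycolysis, had 9.46, 31.9, 36.7, 129 and 17.4 CPM in T+pH, against 7.08, 8.51, 5.32 and 6.77 CPM in pH. PO15 set its level and PO6 was close to the pH libraries (2.73 ± 0.66, FDR 0.0346). Phosphoglucomutase (DN72209_c0_g2_i1, matched in Arabidopsis), which links glucose-6-phosphate to the glucose-1-phosphate used for starch, had 20.7, 24.8, 93, 107 and 34.8 CPM in T+pH, against 3.54, 5.32, 0 and 20.3 CPM in pH. Its T+pH range ended only just above PO14 (3.30 ± 0.73, FDR 0.0249).

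All 6 of these calls were lost without PO12 (FDR 0.0714 to 0.124), PO15 (0.147 to 0.428), PO3 (0.0763 to 0.161) or PO11 (0.0507 to 0.085), and all but GAPDH without PO5 (0.0662 to 0.108). Serine hydroxymethyltransferase, phosphoribulokinase and the aldolase were also lost without PO14 (FDR 0.0509 to 0.0697), and the aminotransferase without PO19 (FDR 0.0825). With RLE factors both photorespiration transcripts and the aldolase missed the threshold (FDR 0.0625 to 0.0641), while the signs stayed. DESeq2 did not call the aldolase (FDR 0.103).

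The lists that follow were taken from the study's own tables of differentially expressed genes in these samples, so their directions are not independent evidence. Counts of rises and falls in a list are those of edgeR, and those of DESeq2 stand beside them. Isoforms of the same Trinity gene count as separate members of a list, although they may not be separate measurements. Over all 23910 tested transcripts, 13236 fold changes were positive in edgeR, and edgeR called 120 and DESeq2 156. In the photorespiration list, 2 of 6 tested transcripts rose and none fell, all 6 fold changes were positive, and the median was 2.66 (log2). Both glycine dehydrogenase transcripts, with log2 fold changes of 3.47 (DN67734_c4_g1_i1) and 3.06 (DN77029_c1_g1_i1), were not called by edgeR (FDR 0.138 and 0.174) but were by DESeq2 (FDR 0.00334 and 0.0300), which called 4 of the 6 as rises. In the Calvin cycle and glycolysis list, 3 of 11 rose (2 in DESeq2), none fell and 10 were positive, with a median of 2.26. Phosphoglycerate kinase (DN75667_c0_g1_i2) just missed the threshold at a log2 fold change of 3.01 (FDR 0.0502), and its T+pH range overlapped pH because PO6 was low and PO19 had no count. The exception in sign was the pyrophosphate-dependent phosphofructokinase (DN68436_c0_g1_i1), at -0.41 (FDR 0.859). Among 7 transcripts of starch and other glucans, phosphoglucomutase rose, none fell, 5 were positive and the median was 1.85. That median is the value of DN74466_c0_g1_i1 and DN74466_c0_g1_i4, isoforms with the same fold change and FDR. DESeq2 called phosphoglucomutase too and also a fall of alpha-glucan phosphorylase (DN76537_c0_g1_i1, log2 fold change -1.63, FDR 0.0227). The pentose phosphate list held 5 transcripts, of which transaldolase fell and none rose, with a median of 0.62. DESeq2 called 3 of the 5, adding a rise of a 6-phosphogluconate dehydrogenase match (DN70344_c0_g1_i2, 1.70, FDR 0.0438) and a fall of glucose-6-phosphate dehydrogenase (DN74965_c0_g4_i1, -2.22, FDR 0.0318). Without PO15 no transcript of these 4 lists was called by edgeR, and the numbers of positive fold changes stayed the same.

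**Figure D2:**
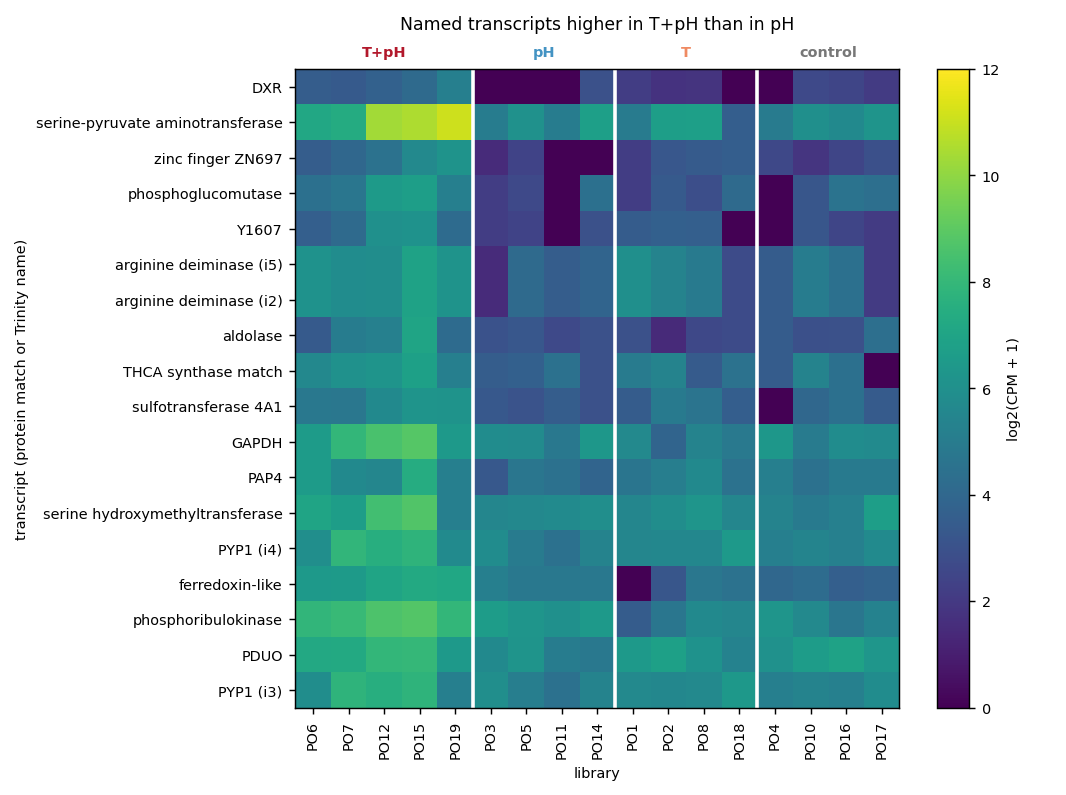
Levels of the 18 named rises (rows) in the 17 libraries (columns, in the order T+pH, pH, T and control), coloured by log2(CPM + 1). The T+pH columns are the highest block in most rows, and PO15 is the highest of them in most rows.

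The other named rises had varied matches. The 2 isoforms of arginine deiminase (DN74316_c0_g1_i2 and DN74316_c0_g1_i5, matched in the bacterium Chromobacterium), which releases ammonia from arginine, had identical counts and are 1 measurement, with 67.4, 55.5, 58.8, 120.1 and 69.7 CPM in T+pH, against 1.77, 17, 10.6 and 13.5 CPM in pH. The T+pH libraries all lay above the pH range, with PO15 far above the other 4 (2.81 ± 0.60, FDR 0.0202). 1-Deoxy-D-xylulose 5-phosphate reductoisomerase (DN74481_c13_g2_i1, matched in the cyanobacterium Acaryochloris), an enzyme of the plastid route to isoprenoids, had 88 counts over T+pH and 1 over pH, a ratio of pooled CPM of 25.8 (exact binomial 95% interval 4.52 to 1032, FDR 0.0491). Such intervals, and limits set from 3 counts, cover counting error only. The ferredoxin match (DN74711_c1_g3_i1, in Arabidopsis a mitochondrial electron carrier) had 85.1, 90.9, 127, 155 and 139 CPM in T+pH, against 35.4, 26.6, 26.6 and 27.1 CPM in pH. Neither treatment came near the other (2.01 ± 0.50, FDR 0.0418).

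A match to a plastid-lipid-associated protein of Arabidopsis (DN76119_c0_g1_i4) averaged 79.7 ± 57 CPM in T+pH and 17.3 ± 7.51 CPM in pH (SD, n = 5 and 4), and a match to a cobalamin adenosyltransferase of Bacillus (DN76706_c0_g2_i2) 179 ± 70.1 CPM in T+pH and 45.9 ± 21.1 CPM in pH. In both, all T+pH libraries lay above every pH library (log2 fold changes 2.26 ± 0.52, FDR 0.0273, and 1.91 ± 0.45, FDR 0.0304). The isoforms of PYP1, a transcript matched in the red alga Pyropia (DN72336_c0_g1_i3 and DN72336_c0_g1_i4), rose by 1.91 ± 0.48 (FDR 0.0452) and 2.04 ± 0.48 (FDR 0.0304) on the log2 scale, although PO19 lay within the pH range in both and PO6 in the isoform DN72336_c0_g1_i3. The zinc finger match ZN697 of mouse (DN74152_c0_g1_i4) had 204 counts over T+pH and 5 over pH (3.45 ± 0.77, FDR 0.0232). An uncharacterized glycosyltransferase of Methanocaldococcus (DN72515_c1_g2_i2, 3.29 ± 0.75, FDR 0.027), a sulfotransferase of human (DN70252_c0_g2_i1, 2.47 ± 0.61, FDR 0.037) and a cannabinoid synthase of Cannabis, one of a family of flavin oxidases (DN69966_c0_g1_i1, 2.5 ± 0.60, FDR 0.0327), were the remaining matches. All of these 12 rises lost their call without PO15 (FDR 0.114 to 0.243) or PO3 (0.0589 to 0.272), 8 without PO12 (0.0826 to 0.112), 7 each without PO5 (0.0605 to 0.347), PO11 (0.0526 to 0.127) and PO14 (0.0524 to 0.0898), 4 without PO7 (0.0537 to 0.106) and 2 without PO19 (0.0502 to 0.0673). The reductoisomerase, with its single count in pH, also missed the threshold without the T library PO2 (FDR 0.0557) or PO8 (0.051) and in DESeq2 (0.0684). Both rises with no match, DN69330_c0_g2_i1 (93 counts over T+pH and 1 over pH) and DN73115_c1_g3_i1 (986 and 41 counts), are named after their values were seen.

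PO15, the deepest library, was the highest T+pH library in 14 of the 20 rises, PO19 in 3, PO7 in 2, PO12 in 1 and PO6 in none. The median level over the 20 rises was 142 CPM in PO15 and 61.0 to 83.2 CPM in the other T+pH libraries, against 9.73 to 20.2 CPM in the pH libraries. The rises were selected in these same libraries, so their separation is a description with no test.

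No transcript of the photosynthetic apparatus list was called by edgeR, while 11 of its 12 fold changes were positive with a median of 1.79. DESeq2 called 2 of the 12 as rises, the matches to HCF107 (DN75042_c0_g2_i1, FDR 0.0385) and VIPP1 (DN73766_c0_g2_i1, FDR 0.0421). The smallest p in edgeR belonged to subunit D of magnesium chelatase (DN72560_c0_g2_i1), which commits precursors to chlorophyll. It had 5.32, 16.5, 39.2, 72.3 and 0 CPM in T+pH, against 7.08, 3.19, 0 and 0 CPM in pH. PO6 lay within the pH range and PO19 had no count (log2 fold change 3.05 ± 0.79, FDR 0.0604). The R-phycoerythrin gamma chain (DN70577_c1_g3_i1), a part of the red algal light-harvesting pigment complex, had 426 counts over T+pH and 34 over pH, with a log2 fold change of 1.61 (FDR 0.172). Among 14 transcripts of lipid and sterol metabolism 12 were positive (median 1.49), and the 1 that rose was that isoprenoid reductoisomerase, not a desaturase or acyltransferase. The desaturases and the acyltransferases of phospholipids and glycerol-3-phosphate had log2 fold changes between 0.87 and 1.99, and edgeR and DESeq2 called none of them. Both acyl-coenzyme A oxidase isoforms (DN69349_c0_g1_i1 and DN69349_c0_g1_i2), which begin the breakdown of fatty acids, had -1.99 in edgeR (FDR 0.0682 and 0.0679) and were the transcripts of this list that DESeq2 called, as falls (FDR 0.0364 and 0.0363).

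Nitrate transporters stood among the falls, with 3 transcripts matched to the high-affinity nitrate transporter NRT2.5 of Arabidopsis. The first (DN68840_c0_g1_i4) had 24.2, 35.4, 0, 15.3 and 17.4 CPM in T+pH, against 119, 159, 112 and 88 CPM in pH. Every T+pH library lay below every pH library, and the T (69.4 to 105 CPM) and control libraries (55.4 to 163 CPM) lay above T+pH as well (-2.63 ± 0.50, FDR 0.00985). The second (DN76693_c0_g2_i2) had 20.1, 47.2, 0, 16.2 and 17.4 CPM in T+pH, against 120.3, 138, 95.8 and 54.1 CPM in pH. PO7 came close to PO14, and the ranges lay apart (-2.29 ± 0.52, FDR 0.0271). The third (DN76693_c1_g1_i2) averaged 5.38 ± 4.01 CPM in T+pH and 33.1 ± 23.4 CPM in pH, with PO14 within the T+pH range (-2.40 ± 0.57, FDR 0.0318). Reads may be shared between these transcripts, which makes the split of counts among them uncertain.

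Of the 6 nitrate and ammonium transporters in the list, 3 fell, none rose, all 6 fold changes were negative and the median was -2.34. A further nitrate transporter, matched to NRT2.4 (DN76248_c0_g5_i1), had a log2 fold change of -2.43 (FDR 0.0502 in edgeR, 0.0498 in DESeq2, which called 4 of the 6), and both ammonium transporter isoforms had -0.95 and -1.10 (FDR 0.811 and 0.565). A succinate-acetate/proton symporter (DN75257_c0_g3_i1, matched in Shigella) was the sole member that edgeR called of 15 other membrane transporters, of which 10 were positive with a median of 1.82. DESeq2 called it and, as rises, 6 isoforms of DN69992_c0_g1, a match to cystinosin (log2 fold changes 1.72 to 1.75, FDR 0.0388 to 0.0409). These 6 are among the 10 positive members and had nearly the same fold changes in edgeR (1.82 to 1.85). The list median is a value of theirs, so it reflects mostly this gene. The symporter had 153, 149, 41.6, 60.4 and 0 CPM in T+pH, against 1150.2, 686, 271 and 115 CPM in pH. PO14 lay within the T+pH range, and PO3 and PO5 were the highest (-2.66 ± 0.61, FDR 0.041). The first nitrate transporter stayed a DEG without any single library. The other 2 nitrate transporter calls and the symporter were lost without PO12 (FDR 0.0826 to 0.111), PO15 (0.147 to 0.189), PO19 (0.0502 to 0.077), PO3 (0.0866 to 0.166) or PO5 (0.0597 to 0.24). The third nitrate transporter was also lost without PO7 (FDR 0.0537), and the symporter without the T library PO1 (0.0519) or PO2 (0.0571).

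**Figure D3:**
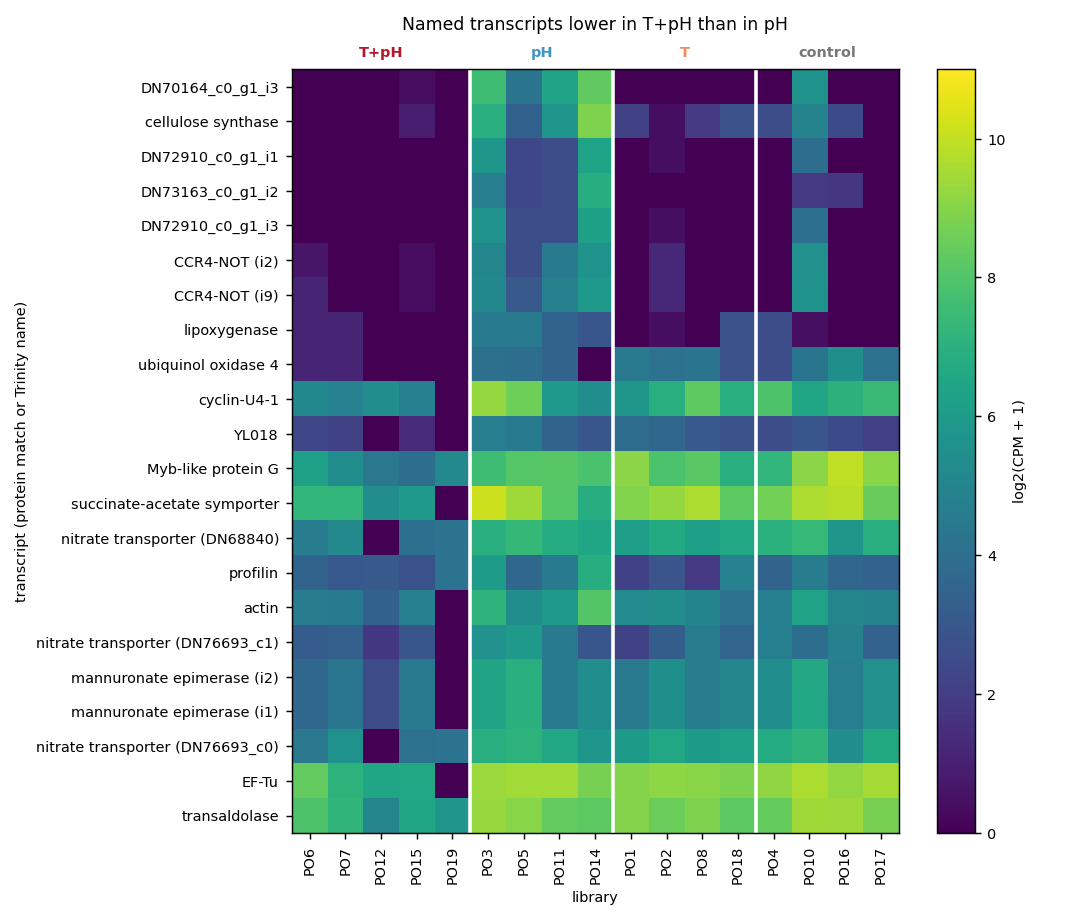
Levels of the 22 named falls (rows) in the 17 libraries (columns, in the order T+pH, pH, T and control), coloured by log2(CPM + 1). Nitrate transporter DN68840, the Myb match, transaldolase and EF-Tu are lower in each T+pH library than in any other library. The largest falls are at or near 0 in T+pH, low in T and highest in pH libraries. In several of these falls control library PO10 lies above the lowest pH library.

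Transcripts of the cytoskeleton, cell wall and cell cycle formed the list with most falls, 6 of 13 with no rise, 5 positive fold changes and a median of -2.35. DESeq2 also called 6. Actin (DN72421_c3_g1_i1, matched in the red alga Chondrus) had 23.6, 21.2, 9.79, 26.7 and 0 CPM in T+pH, against 136, 40.4, 58.5 and 264 CPM in pH. The ranges lay apart, with PO14 and PO3 highest (-2.59 ± 0.51, FDR 0.0126). Profilin (DN67817_c0_g1_i2, matched in maize), which binds actin monomers, averaged 9.66 ± 4.69 CPM in T+pH and 53.8 ± 47.5 CPM in pH, and PO5 lay within the T+pH range (-2.62 ± 0.62, FDR 0.0315). A match to cyclin-U4-1 of Arabidopsis (DN70756_c0_g5_i1) had 34.3, 28.3, 41.6, 27.3 and 0 CPM in T+pH, against 614, 376, 58.5 and 40.6 CPM in pH. PO14 was below PO12 there, and PO3 and PO5 carried the difference (-3.22 ± 0.67, FDR 0.0293).

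A match to the cellulose synthase of Dictyostelium (DN70292_c0_g2_i1) had 3 counts over T+pH, all in PO15, and 154 over pH, with 117, 9.57, 53.2 and 467 CPM in the pH libraries. The ratio of pooled CPM, pH over T+pH, was 175 (exact binomial 95% interval 58.7 to 857, FDR 0.0202). The isoforms of mannuronate C5 epimerase (DN67122_c0_g1_i1 and DN67122_c0_g1_i2, matched in the bacterium Azotobacter), which changes the sugars of alginate, had the same counts in these 9 libraries. They averaged 11.2 ± 8.83 CPM in T+pH and 68.3 ± 47.1 CPM in pH, with PO15 just below PO11 (-2.35 ± 0.51, FDR 0.0202). Against this direction, DNA polymerase alpha (DN73090_c0_g4_i1) had 84 counts over T+pH and 1 over pH, without passing the test (FDR 0.0599). Without PO12 all of these calls but actin were lost (FDR 0.0582 to 0.0945), and without PO3 all but actin and cellulose synthase (0.0646 to 0.161). Without PO15 cellulose synthase, profilin and the cyclin were lost (0.167 to 0.221), without PO14 actin (0.0663) and profilin (0.148), without PO5 both epimerase isoforms (0.138), without PO7 profilin and the cyclin (0.065 to 0.0698), and without PO19 the cyclin (0.0775).

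Single falls were spread over redox, regulation and protein synthesis. The Myb-like transcript (DN68491_c0_g1_i1, matched to protein G of Dictyostelium, a DNA-binding protein) had 76.8, 41.3, 19.6, 14.7 and 34.8 CPM in T+pH, against 191, 271, 282 and 230.1 CPM in pH. All T+pH libraries lay far below all pH libraries, T libraries (123 to 545 CPM) and control libraries (148 to 977 CPM), and the transcript stayed a DEG without any single library (-2.66 ± 0.51, FDR 0.00985). Transaldolase of the pentose phosphate pathway (DN69532_c0_g1_i2, matched in the bacterium Shewanella) had 244, 146, 31.8, 89.5 and 52.3 CPM in T+pH, against 623, 528, 330.0 and 298 CPM in pH. The ranges lay apart, with PO6 nearest to pH (-1.91 ± 0.45, FDR 0.0317). Elongation factor Tu (DN72089_c0_g3_i2, matched in the bacterium Cellulophaga), which brings aminoacyl-tRNA to bacterial and organelle ribosomes, averaged 131 ± 123 CPM in T+pH and 629 ± 134 CPM in pH (-2.16 ± 0.47, FDR 0.0207). PO19 had no count of it, and PO6, at 332 CPM, was the highest T+pH library, against 433 CPM in PO14, the lowest pH library.

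Among 17 transcripts of redox and oxygen-using enzymes, 2 fell, 1 rose (the flavin oxidase match above), 4 were positive and the median was -1.85. DESeq2 called 5 of them, 4 lower and 1 higher. The chloroplast ubiquinol oxidase (DN67878_c0_g1_i3, matched to AOX4 of Arabidopsis), which passes plastoquinol electrons to O2, had 3 counts over T+pH and 25 over pH, and none in the pH library PO14. Its ratio of pooled CPM, pH over T+pH, was 28.4 (8.66 to 147, FDR 0.0147), and its levels were 5.59 to 20.8 CPM in T and 5.11 to 43.9 CPM in the control. Lipoxygenase (DN75899_c0_g2_i3, matched in Pseudomonas), which oxygenates unsaturated fatty acids, had 3 counts over T+pH and 36 over pH, a ratio of 40.9 (12.9 to 207, FDR 0.0104). It was counted in all 4 pH libraries, at 6.77 to 22.3 CPM, but had only 2 counts over T and 2 over the control. Its mean level was 15.2 CPM in pH, against 0.473 CPM in T+pH, 1.48 CPM in T and 1.37 CPM in the control. DESeq2 gave no adjusted p for it. Flavohemoprotein, with 4 isoforms between -3.05 and -2.25 on the log2 scale, was not called by edgeR (FDR 0.0908 to 0.166), whereas DESeq2 called the isoforms DN71784_c0_g1_i3 (FDR 0.0129) and DN71784_c0_g1_i7 (FDR 0.0113).

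The list of chaperones, stomatin and mRNA decay had 2 falls among 8 transcripts, no rise, no positive fold change and a median of -2.81. That median is the value of the isoforms DN74914_c0_g2_i1, DN74914_c0_g2_i2 and DN74914_c0_g2_i3, which had the same fold change and FDR. The chaperone dnaJ also entered as isoforms, so the members are not all separate measurements. Both falls were isoforms of a CCR4-NOT subunit (DN71837_c1_g1_i2 and DN71837_c1_g1_i9, matched in human), which shortens poly(A) tails, and no chaperone or stomatin passed the test in edgeR. The isoforms had 2 and 3 counts over T+pH, against 34 and 40 over pH, with ratios of 57.9 (14.8 to 497, FDR 0.0291) and 45.4 (14.5 to 229, FDR 0.0336). Each had 4 counts over T, and their 125 and 134 counts over the control were all in PO10. The chaperone dnaJ (DN69846_c0_g1_i2) had a log2 fold change of -1.07 (FDR 0.386). Stomatin 2 (DN76627_c1_g1_i1) had -1.51 (FDR 0.111 in edgeR) and was called by DESeq2 (-1.64, FDR 0.0498). Among 9 zinc finger and Myb matches, 1 rose, 1 fell, 2 were positive and the median was -1.89, and DESeq2 called 3. A match to a mimivirus protein with sel1-like repeats (DN73364_c2_g1_i7) had 15 counts over T+pH and 38 over pH (-2.80 ± 0.67, FDR 0.0318).

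Apart from the Myb-like transcript, these calls depended on single libraries. Without PO15, transaldolase, EF-Tu, the ubiquinol oxidase, lipoxygenase, both CCR4-NOT isoforms and the sel1-like match were lost (FDR 0.11 to 0.238). Without PO3 all of these but lipoxygenase were lost (0.0533 to 0.161). Transaldolase and the sel1-like match were lost without PO12, PO19 or PO5, EF-Tu without PO12, and the CCR4-NOT isoforms without PO12, PO7, PO19 or PO14 (FDR 0.0502 to 0.125 over these). At least 1 of these isoforms was also lost without PO11 or the T libraries PO2 or PO18, and the sel1-like match without PO7 (FDR 0.051 to 0.0864 over these).

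**Figure D4:**
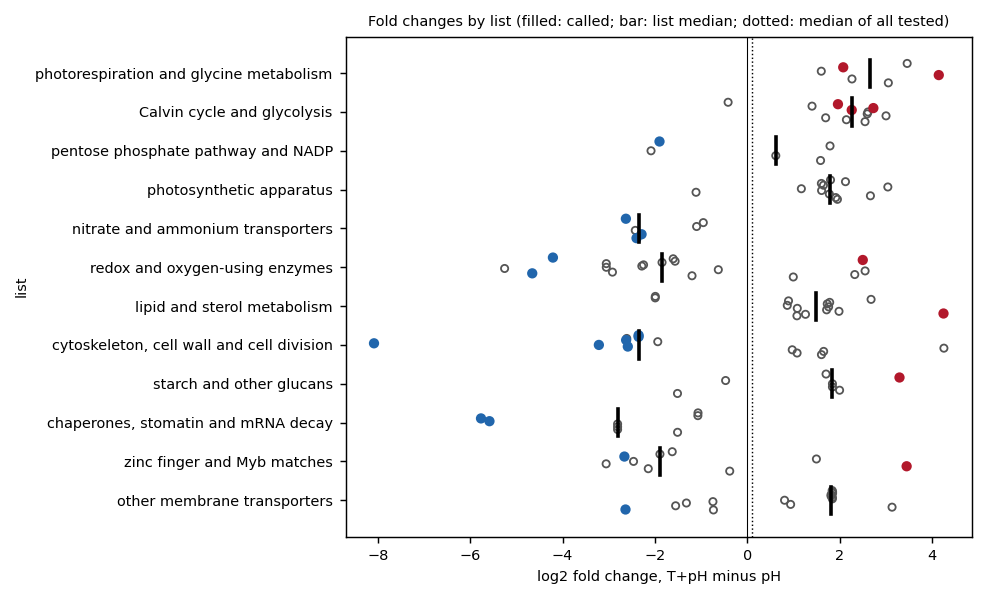
Log2 fold changes (T+pH over pH, x axis) of the members of 12 lists (rows), each member as a point, with the DEGs of edgeR in colour and the median of each list as a bar. Isoforms of the same Trinity gene are separate points. All 6 photorespiration, 10 of 11 Calvin cycle and 11 of 12 photosynthetic transcripts lie to the right of the median of all tested transcripts (0.11, dotted line), and all nitrate transporters and chaperones and most cytoskeletal transcripts to its left.

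Of the 5 largest falls with CPM ranges apart, cellulose synthase was the only one with a protein match. DN70164_c0_g1_i3 had 1 count over T+pH, in PO15, and 187 over pH, with 191, 18.1, 79.8 and 318 CPM in the pH libraries. The ratio of pooled CPM, pH over T+pH, was 637 (113 to 25278, FDR 0.0437). Both isoforms of DN72910 (DN72910_c0_g1_i1 and DN72910_c0_g1_i3) had no count in T+pH, against 48 and 45 counts over pH, so that they were at least 54.5-fold and at least 51.1-fold lower (FDR 0.0202 and 0.0147). DN73163_c0_g1_i2, with no count in T+pH or in T and 36 over pH, was at least 40.9-fold lower (FDR 0.0133). Each of these was counted in all 4 pH libraries, with PO14 and PO3 highest. DN73163_c0_g1_i2 stayed a DEG without any single library. DN70164_c0_g1_i3 was lost without PO3, PO6, PO7, PO11, PO12, PO14, PO15 or PO19, and the DN72910 isoforms, whose calls DESeq2 did not make (FDR 0.102 and 0.103), without PO15 or the T library PO2 and, for the first isoform, PO3 (FDR 0.0537 to 0.386 over these).

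Transcripts with few or no counts in T+pH made up most of the falls. Of the 100, 31 had no count over the 5 T+pH libraries and 30 had 1 to 3, whereas 0.402% of all tested transcripts had no count and 4.27% had at most 3. These 61 came from 50 Trinity genes, 5 had a protein match, and 28 were counted in all 4 pH libraries. Over pH they had 5 to 187 counts each, with a median of 16. Their summed level was 4.72 to 17.4 CPM in the T+pH libraries, against 376 CPM in PO5, 511 in PO11, 1371 in PO3 and 2450 in PO14. In T it was 33.6 to 66.7 CPM, and in the control 679 CPM in PO10 and 49.5 to 99.3 CPM in the other 3 libraries. Outside the 9 libraries that chose the set, control library PO10 was high, and the T and remaining control libraries were low. PO10 had more than 3 counts for 45 of the 61, and 33 of these had at most 3 counts over T and at most 3 over the other controls. The set was formed by its counts after they were seen and has no test. Transcripts without a count in T+pH passed the filter of 5 counts through the pH libraries alone. The share of such transcripts among the falls, and the set's low T+pH and high pH sums, therefore follow from the selection.

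**Figure D5:**
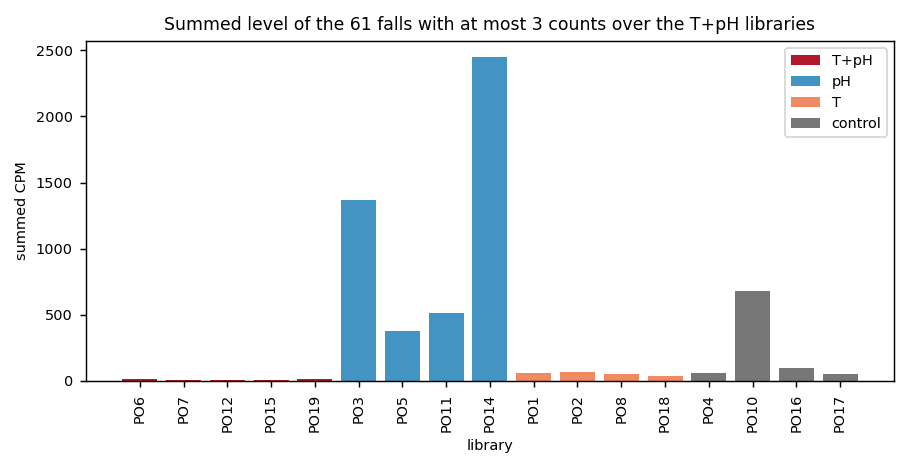
Summed CPM (y axis) of the 61 falls with at most 3 counts over T+pH, 1 bar for each of the 17 libraries, grouped as T+pH, pH, T and control (x axis). The T+pH libraries lie at 4.72 to 17.4 CPM, the pH libraries at 376 to 2450 CPM, and control library PO10, at 679 CPM, stands among the pH libraries.

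Of the 7 RT-qPCR transcripts only GAPDH was a DEG in edgeR. The proposed reference β-tubulin (DN76782_c6_g1_i1) had 11 counts in T+pH, all in PO15, and 1 in pH, so that its log2 fold change of 1.08 ± 1.24 (FDR 0.851) became -2.18 without PO15. Heme oxygenase (DN95780_c0_g1_i1) had 6.5, 9.44, 19.6, 8.27 and 314 CPM in T+pH, against 12.4, 7.44, 21.3 and 47.4 CPM in pH. PO19 alone raised its T+pH mean, and its log2 fold change of 1.0 ± 1.49 (FDR 0.908) became -0.84 without PO19. Photosystem II CP47 (DN73640_c0_g1_i1) had 26 counts over T+pH and 27 over pH. Its mean was higher in T+pH (16.6 ± 29.7 against 10.01 ± 8.76 CPM, SD), where 4 counts in PO19 gave 69.7 CPM, while the fitted log2 fold change, which weighs libraries by depth, was -1.11 ± 0.92 (FDR 0.759). Ferritin-3 (DN73238_c10_g1_i1), an iron store of the chloroplast, was the most abundant, with 1715, 3677, 8145, 4334 and 4669 CPM in T+pH, against 13785, 5729, 3156 and 5149.9 CPM in pH. Its ranges overlapped (log2 fold change -0.63 ± 0.51, FDR 0.744). Transcripts DN71939_c0_g6_i1 and DN72227_c0_g4_i1, to which the study's tables give 2 different names each, had log2 fold changes of 1.83 (FDR 0.0843) and -0.47 (FDR 0.76) in edgeR. DESeq2 called DN71939_c0_g6_i1 as a rise (1.77, FDR 0.0370).

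The same warming at pH 8.0, T against the control, shares no library with the comparison at pH 7.7. It gave no DEG among the 23910 transcripts in edgeR, where 1252 (5.24%) had an unadjusted p under 0.05, and none in DESeq2. Between T+pH and pH 2426 transcripts (10.1%) had such a p. The interaction, which tests whether warming differed between the pH levels, also gave no DEG in edgeR (1254 transcripts, 5.24%, at an unadjusted p under 0.05) and 7 in DESeq2. In edgeR the interaction gave 30 with no filter on low counts, 1 after thinning the libraries and 4 without PO6. Among the 120 DEGs the lowest FDR of the interaction was 0.409.

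Of the 20 rises, 13 had a positive fold change between T and the control, as did 48.8% of all tested transcripts, with a median of 0.33 on the log2 scale and no unadjusted p under 0.05. Phosphoribulokinase had a log2 fold change of -0.52 in T against the control, GAPDH -0.75 and the aminotransferase 0.32, beside 1.97, 2.26 and 4.15 in T+pH against pH. The mean level in T+pH was above the means of pH, T and the control in 20 of the 20 rises. Of the 100 falls, 84 had a negative fold change between T and the control (50.4% of all tested), with a median of -1.48 and 36 at an unadjusted p under 0.05. That count rested on PO10. Without this library 46 of the falls were negative (39.1% of all tested) and their median was 0. The mean level in T+pH was below the means of pH, T and the control in 73 of the 100 falls. Both counts of means are descriptions with no test, because the DEGs were chosen by their difference between T+pH and pH. Falls without a count in T+pH could not lie above any treatment, and the share over all tested transcripts was not determined.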

How the data were processed

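The authors prepared CEL-Seq2 libraries from 25 ng of RNA, trimmed the reads and aligned them by bowtie2 against the Trinity assembly of P. onkodes, to which ERCC spike-in sequences were added. Counts were made with the CEL-Seq pipeline. The deposited values are counts per transcript and library, whole numbers without normalization, and no replicates were pooled. Whether they include the correction for shared UMIs could not be told. Treatments were taken from the sample labels. The members and lists were chosen with earlier results of these data known.

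Transcripts with at least 5 counts over the T+pH and pH libraries were kept. All 17 libraries were fitted in 1 model with 4 treatments by edgeR (version 4.0.16, R 4.3.3, limma 3.58.1), with TMM scaling and the robust quasi-likelihood F-test in the form of earlier edgeR versions, and p-values were adjusted by the Benjamini-Hochberg method over all tested transcripts. DEGs were transcripts at an FDR below 0.05 whose log2 fold change exceeded 0.3 in either direction. The standard error is the absolute log2 fold change divided by the root of the F statistic. Library totals and detection were compared by exact permutation tests. All 16 pairs of libraries of 1 treatment differed beyond sampling noise, so none was counted as a copy. The p-values measure the spread between fragments, which may share tanks.

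The transcripts named were the 5 largest rises and 5 largest falls among DEGs with CPM ranges apart, every DEG with a protein match in the study's tables, the smallest p of each list with no DEG, and the RT-qPCR transcripts. Other list members are given as examples. The tests were tried on simulated counts first. Alternatives were DESeq2 (version 1.42.0), RLE factors, the newer quasi-likelihood method of edgeR, a fit without robust estimation, other filters, the compared libraries alone, thinned counts, isoforms summed per gene and each library left out. Summaries and figures used Python 3.11.15 with pandas 2.3.3, numpy 2.4.6, matplotlib 3.10.9 and scipy 1.17.1.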

Additional observations from a re-analysis of the deposited data

Results flagged for a closer look

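In 13 of 98 sets of values from 1 treatment, a library lay far from the others of its treatment by Dixon's criterion. Chance meets it in about 5% of sets of normally distributed values, which sparse counts are not. A set with a single non-zero library meets it by construction, and isoforms with identical counts are flagged together. The 13 therefore cannot be set against 5%. Most of these, 10, were in T+pH. PO19 had 6810 transcripts at equal depth and was far below the other T+pH libraries, whereas its 314 CPM of heme oxygenase (DN95780_c0_g1_i1) and 69.7 CPM of CP47 (DN73640_c0_g1_i1) were far above them. PO15 stood above the other T+pH libraries at 129 CPM of fructose-bisphosphate aldolase (DN74098_c0_g1_i1), at 120.1 CPM of both arginine deiminase isoforms (DN74316_c0_g1_i2 and DN74316_c0_g1_i5) and at 3.37 CPM of β-tubulin (DN76782_c6_g1_i1). It was also the only T+pH library with counts of DN70164_c0_g1_i3 (0.306 CPM) and cellulose synthase (DN70292_c0_g2_i1, 0.919 CPM). PO6 was the highest in the CCR4-NOT isoform DN71837_c1_g1_i9, at 1.18 CPM.

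Among the pH libraries, PO14 was the only one with a count of 1-deoxy-D-xylulose 5-phosphate reductoisomerase (DN74481_c13_g2_i1, 6.77 CPM). PO3 was the only one with a count of β-tubulin (DN76782_c6_g1_i1, 1.77 CPM) and had the highest level of the ferredoxin match (DN74711_c1_g3_i1, 35.4 CPM).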

How the results depend on the processing

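Between T+pH and pH the 120 DEGs, of which 20 rose and 100 fell, became 156 (44 and 112) with DESeq2, 184 without robust estimation (156 lower), 444 with no filter on low counts (109 and 335), 46 with at least 5 counts in at least 4 of the 9 libraries (11 and 35), 671 when only the compared libraries were fitted (196 and 475), 41 with libraries thinned to the shallowest total (6 and 35) and 39 with isoforms summed per Trinity gene (6 and 33). All 120 DEGs were also called with no filter and with the compared libraries alone, 109 with RLE factors, 98 with edgeR's current method, 67 with DESeq2 and 21 after thinning. Leaving out 1 library gave 15 to 231 DEGs, 0 to 62 higher and 15 to 192 lower. Between T and the control the count of 0 became 141 with no filter and 4 with the compared libraries alone, and 0 to 2 with 1 library left out. The interaction gave 7 with DESeq2, 30 with no filter and 1 after thinning, and 0 to 4 with 1 library left out. Leaving out PO10 and PO19 together gave 192 DEGs (54 higher) and 2 between T and the control, and leaving out PO15 and PO19 gave 3 (0 higher and 3 lower). Both were chosen after seeing the data, because these libraries stood apart. The cause of these differences was not tested. Thinning and the stricter filter also left fewer transcripts to test (10869 and 11195).

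The difference in log10 totals, 0.252, lay between 0.0849 and 0.481 with 1 library left out. The difference in transcripts detected at equal depth, T+pH minus pH, was -98.1 (exact permutation test, p = 0.944) and lay between -500.0 and 644 with 1 library left out. It changed sign without PO19 (644, exact permutation p = 0.4) and without PO5 (140, p = 0.964).

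Of 1354 values of named transcripts under 29 alternatives, 1039 kept direction and call, 299 lost the call, 10 gained one and 6 reversed. Of the 40 named DEGs, 35 kept their call with DESeq2, 34 with RLE factors, 10 of 39 after thinning, 16 at the gene level, 6 without PO15, 7 without PO3 and none without PO15 and PO19. The reversed values, none of a DEG, were those of β-tubulin (DN76782_c6_g1_i1, log2 fold change -2.18 without PO15, up to 3.49 with 1 library left out, and -2.24 without PO15 and PO19), heme oxygenase (DN95780_c0_g1_i1, -0.84 without PO19, up to 1.56 with 1 library left out, -0.83 without PO10 and PO19, -0.74 without PO15 and PO19) and CP47 (DN73640_c0_g1_i1, 0.071 after thinning). No paired analysis was possible because the treatments share no replicate numbers. Depth differed between the libraries, and its part in the calls was not tested. Of the falls, 61 rest on at most 3 counts in T+pH, PO19 gives a level only in steps of 17.4 CPM, and after thinning 2 of the 20 rises and 19 of the 100 falls were still called.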
